A study of Saccharomyces cerevisiae with 47 samples.

Results

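The nuclear genes of the mitochondrial respiratory chain and of ATP synthase were examined for sites of the general regulatory factors Reb1 and Abf1 in chromatin reconstituted in vitro. Members were the nuclear protein-coding genes of budding yeast with an R64 symbol of ATP, COX, QCR or SDH and a number, with CYT1, CYC1 and CYC7 added. This rule gave 57 of 6002 genes. They were 4 subunit genes of complex II, 7 of complex III, both cytochrome c genes, 10 of complex IV, 13 of complex V, 20 assembly factor genes and SDH9, a paralog of SDH1. The symbols do not reach COR1, RIP1 and TIM11, which also encode subunits, and genes encoded in mitochondrial DNA are not members.

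Plasmid library DNA was assembled with recombinant yeast histone octamers, without cells and without other nuclear proteins. Strep-tagged Reb1 or Abf1 was added at 50 nM, either by itself or together with a remodeler (24 nM for Chd1, ISW2 and INO80, 12 nM for RSC), and controls had neither factor nor remodeler. The 47 samples, all labelled with 0.05% formaldehyde, were 24 pulldowns and 23 inputs, in groups of 1 or 2 samples. The values are 1 list of motif sites per factor for the series as a whole, with 942 distinct Reb1 sites and 1365 distinct Abf1 sites on 16 chromosomes. Neither list names samples, so depth, replicate spread and remodeler effects cannot be read from them, and they allow no test over samples. Coverage tracks of the samples, which the labels name, were not analysed here. Percent intervals are exact (Clopper-Pearson) 95% binomial intervals and cover counting error over genes only.

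The respiratory chain passes electrons from succinate dehydrogenase (complex II) and other dehydrogenases to the cytochrome bc1 complex (complex III), through cytochrome c to cytochrome c oxidase (complex IV). The proton gradient built on the way drives ATP synthase (complex V). In budding yeast many of these genes are known to be activated by the Hap2/3/4/5 complex and by Hap1 and repressed by glucose. Reb1 and Abf1 are not specific to respiration: they bind defined motifs in promoters of many kinds and keep nucleosomes away from them.

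Of the 57 genes, 18 had a site of either factor centred within 500 bp upstream of the start codon (31.6%, interval 19.9 to 45.2), against 24.7% of all protein-coding genes. Reb1 sites were upstream of 8 genes (14.0%, 6.26 to 25.8), against a background of 12.5%. Abf1 sites were upstream of 11 genes (19.3%, 10.0 to 31.9), against 13.5%. Each background lay inside the interval of the members, so the shares of the whole list were not distinguishable from those of all genes. CYC1 was the one member with sites of both factors (1 of 57, 1.75%), against 1.35% of all genes. The 18 genes carried 23 sites, 8 of Reb1 and 15 of Abf1. Abf1 had 2 sites at 4 of 57 genes (7.02%), against 1.65% of all genes, and Reb1 had 2 sites at 0 of 57, against 0.800%. The 4 genes were QCR6, ATP2, COX23 and CYC1. Both sites of QCR6 and of ATP2, and the farther site of COX23, lay inside the coding region of another gene. The CYC1 sites adjoined, with centres 15 bp apart. The background was not split in this way, and the difference was not tested.

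Other limits gave other counts, and the Abf1 share came closer to its background at 300 and 1000 bp than at 500 bp. With 300 bp upstream, 5 members had Reb1 (8.77%, background 9.31%) and 6 had Abf1 (10.5%, background 9.60%), and with 1000 bp the counts were 10 (17.5%, background 16.3%) and 11 (19.3%, background 18.7%). With sites at or above the median score of their list, 4 members had Reb1 (7.02%, background 7.26%) and 7 had Abf1 (12.3%, background 9.30%). With sites listed in at least 2 rows, 6 had Reb1 (10.5%, background 10.6%) and 9 had Abf1 (15.8%, background 10.9%). With sites outside all coding regions, 7 had Reb1 (12.3%, background 11.9%) and 9 had Abf1 (15.8%, background 12.3%). The Reb1 share was thus close to the background at each of these limits.

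The sites were spread unevenly in number over the complexes, but the groups were small. Complex V had sites at 7 of 13 genes (53.8%, 25.1 to 80.8), complex III at 3 of 7 (42.9%, 9.90 to 81.6), complex IV at 2 of 10 (20%, 2.52 to 55.6), the assembly factors at 5 of 20 (25%, 8.66 to 49.1) and complex II at 0 of 4 (upper bound 60.2%). The 7 genes of complex V split into 3 with Reb1 and 4 with Abf1, and 0 had both. In complex III all 3 genes with a site had Abf1, and 0 of 7 had Reb1 (upper bound 41.0%). These 7 leave out COR1 and RIP1 by symbol. COR1 had a Reb1 site 398 bp upstream, so with both added complex III had 1 gene with Reb1 and 3 with Abf1. The intervals of all 5 groups overlapped one another. Complex V had the highest of the 5 shares, and its lower bound stood at 25.1%, beside 24.7% of all genes. These intervals were not adjusted for the number of groups. The 13 genes of complex V leave out TIM11. With it added, the counts stayed at 3 with Reb1 and 4 with Abf1, so the share was lower. No interval was computed for that longer group, and the lower bound of 25.1% holds for the 13 genes alone. With 300 bp upstream, 2 genes of complex V had Reb1 and 2 had Abf1. With sites at or above the median score of their list, 1 had Reb1 and 3 had Abf1. No test of the complexes against each other was made.

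**Figure D1:**
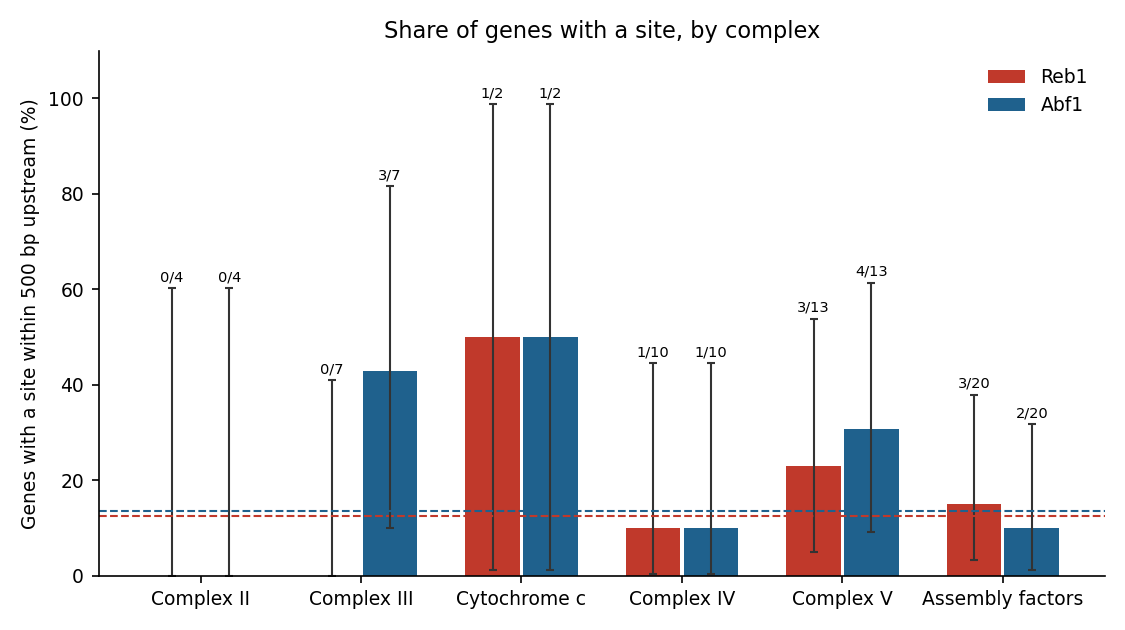
Share of genes in each group with a Reb1 (red) or Abf1 (blue) site within 500 bp upstream of the start codon, in percent, with the number of genes above each bar. Error bars are exact 95% binomial intervals and dashed lines mark all protein-coding genes (12.5% for Reb1, 13.5% for Abf1); the intervals of the complexes overlap, and complex II has no gene with a site of either factor.

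Complex II oxidizes succinate in the inner membrane and is also an enzyme of the citric acid cycle. SDH1 (flavoprotein), SDH2 (iron-sulfur subunit), SDH3 and SDH4 (membrane subunits) had no site of either factor within 500 bp. The nearest to the limit was a Reb1 site on chromosome XI from 171646 to 171655, 521 bp upstream of SDH1 and 133 bp from the divergent gene AVT3, a vacuolar amino acid transporter gene. Its score of 14.3 was the highest in the Reb1 list, a value shared by 39 sites. SDH9 had no site within 1000 bp.

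In complex III, 3 genes of small subunits had Abf1 sites. QCR9 had a site on chromosome VII (859683 to 859698), 214 bp upstream, with score 15.0 at percentile 98.6 of the list (rank 19 of 1365). It was within 500 bp upstream of no other gene. The QCR8 site on chromosome X (106185 to 106200) lay 242 bp upstream with score 11.4, at percentile 31.5. QCR8 and QCR9 were thus alike in position and far apart in score. QCR6, the acidic hinge-like subunit, had Abf1 sites 313 and 444 bp upstream on chromosome VI (225075 to 225090 and 225206 to 225221), with scores 12.2 and 15.1 (percentiles 54.1 and 98.8). Both lay inside the coding region of PHO4, the activator of phosphate genes, which ends 250 bp before QCR6. Counted to 1000 bp, QCR6 had 5 Abf1 sites, all inside PHO4, and 3 of 6002 genes had 5 or more. PHO4 itself was 1 of 3 genes with at least 5 Abf1 sites inside, among 521 genes with any. CYT1 (cytochrome c1), QCR2 (core protein), QCR7 and QCR10 had no site within 1000 bp.

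Cytochrome c carries electrons from complex III to complex IV, and yeast has an aerobic isoform, CYC1, and a hypoxic one, CYC7. CYC1 had 3 sites in a row on chromosome X, all on the strand of the gene. The Abf1 sites ran from 525868 to 525883 and from 525883 to 525898, and the Reb1 site from 525898 to 525907, so that the end coordinate of each was the start coordinate of the next. They spanned 39 bp, with centres 460, 445 and 433 bp upstream of the start codon. Their scores were 12.4, 12.7 and 13.4, at percentiles 58.9 and 67.2 of the Abf1 list and 82.1 of the Reb1 list. The row lay in the middle of the 953 bp between CYC1 and the divergent gene ANB1, an oxygen-repressed eIF5A gene, whose start codon was 494, 509 and 521 bp away. Such rows were rare: of 942 Reb1 sites, 8 had an Abf1 centre within 15 bp, and 3 had at least 2 Abf1 centres within 30 bp. CYC7, with 484 bp to its divergent neighbour, had no site of either factor within 1000 bp.

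**Figure D2:**
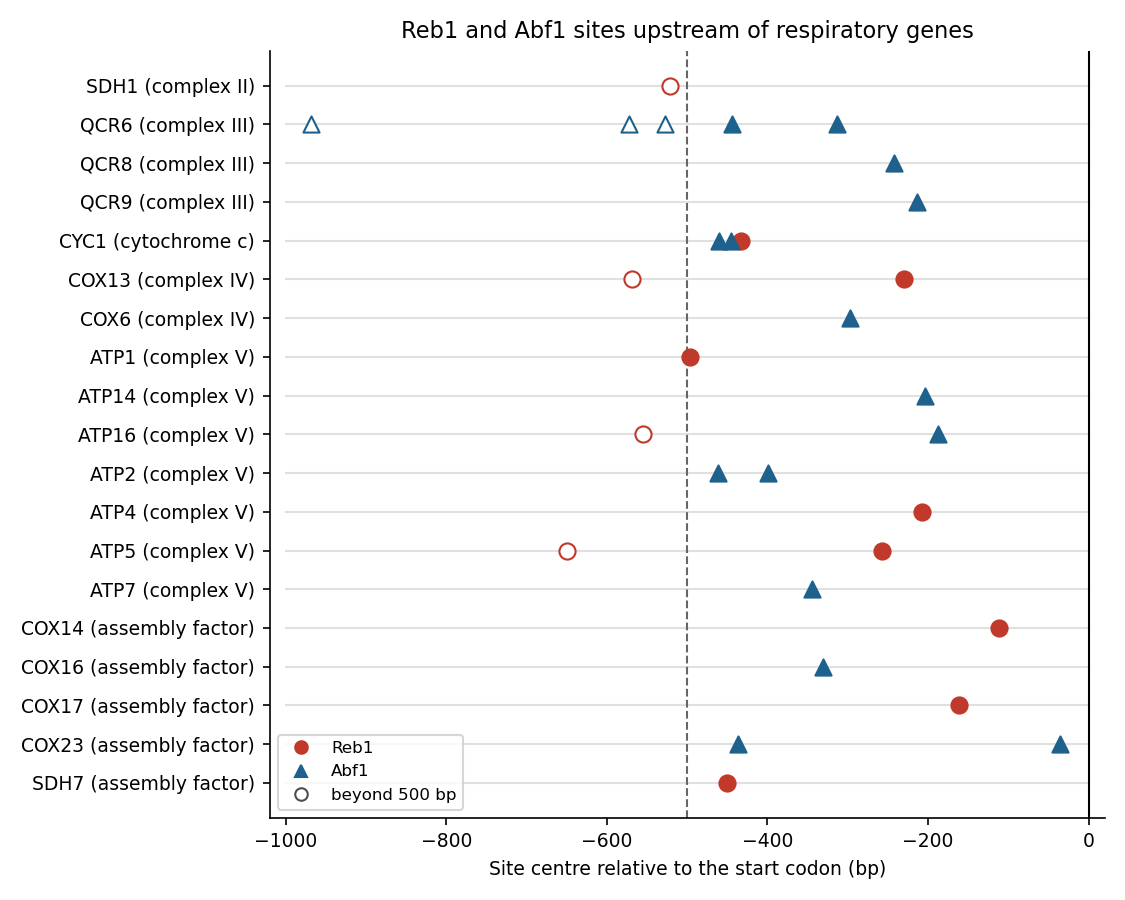
Position of each site centre relative to the start codon, in bp, for the 19 members with a site within 1000 bp; red circles are Reb1, blue triangles Abf1, and open symbols lie beyond the 500 bp limit (dashed line). CYC1 is the one row with filled symbols of both factors, and QCR6 has 5 Abf1 sites.

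Complex IV, the terminal oxidase that reduces oxygen, had 2 sites within 500 bp, both below the median score of their list. COX13 had a Reb1 site on chromosome VII (144574 to 144583), 230 bp upstream, with score 12.2 at percentile 43.7, and another 569 bp upstream with score 13.7. COX6 had an Abf1 site on chromosome VIII (209401 to 209416), 297 bp upstream, with score 11.5 at percentile 34.4. That site was 67 bp before the start codon of YHR050W-A, a tandem gene that lies between it and COX6. The COX13 site within 500 bp and the COX6 site were each listed in 1 row only. COX4, COX7, COX8, COX9, COX12 and COX26 had no site within 1000 bp. Neither did COX5A and COX5B, the aerobic and hypoxic isoforms of subunit 5, so this pair did not show the difference seen between CYC1 and CYC7.

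ATP synthase consists of a catalytic F1 head, a membrane part with the rotor, and a stator that holds them together. Among the F1 genes, ATP1 (alpha) had a Reb1 site, ATP2 (beta) and ATP16 (delta) had Abf1 sites, and ATP3 (gamma) and ATP15 (epsilon) had none within 1000 bp. The ATP1 site on chromosome II (36552 to 36561) was the one closest inside the limit, 497 bp upstream, with score 11.4 at percentile 14.3. ATP2 had Abf1 sites 399 and 462 bp upstream on chromosome X (647201 to 647216 and 647138 to 647153), both inside the coding region of the tandem gene DMO1, with scores 10.9 and 11.2 (percentiles 14.1 and 24.7). The alpha and beta genes, which together make the catalytic hexamer, thus had different factors and only distant sites of low score. ATP16 differed from them, with an Abf1 site on chromosome IV (442834 to 442849) 188 bp upstream and score 13.8 at percentile 87.9. A Reb1 site lay 555 bp upstream of ATP16, 165 bp from the divergent gene MED2, which encodes a Mediator subunit.

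The stator genes divided between the factors. ATP4 (subunit b) had a Reb1 site on chromosome XVI (408948 to 408957), 208 bp upstream, with score 13.7 at percentile 92.4. ATP5 (the OSCP subunit) had a Reb1 site on chromosome IV (1059068 to 1059077), 258 bp upstream, with score 11.9 at percentile 31.6. A further Reb1 site, 650 bp upstream of ATP5, was 163 bp from the divergent gene BFR2, which acts in ribosomal RNA processing. ATP7 (subunit d) had the Abf1 site of highest score at any member, on chromosome XI (408326 to 408341) with score 15.3, rank 10 of 1365 and percentile 99.2. It was 344 bp from ATP7 and 211 bp from the divergent gene PUT3, the activator of proline utilization. ATP14 (subunit h) had an Abf1 site on chromosome XII (722570 to 722585), 204 bp upstream, with score 13.6 at percentile 84.2, and 401 bp from the divergent YLR296W. Within 500 bp, the sites at ATP4, ATP14 and ATP16 were between 188 and 208 bp from the start codon and at percentile 84.2 or higher of their list. Complex V did not share this layout: the sites at ATP1, ATP2, ATP5 and ATP7 lay 258 to 497 bp upstream, at percentiles from 14.1 to 99.2. ATP17, ATP18, ATP19 and ATP20, which encode small membrane subunits, had no site within 1000 bp.

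Assembly factors insert subunits, copper, heme or flavin, or act in the expression of mitochondrial genes. COX14, which links synthesis of Cox1 to assembly, had a Reb1 site on chromosome XIII (14861 to 14870) 112 bp upstream with the top score of 14.3, listed in 1 row. COX17, the copper chaperone of the oxidase, had a Reb1 site on chromosome XII (131571 to 131580) with score 13.7 at percentile 92.4, which was 161 bp from COX17 and 154 bp from the divergent DRS1, a ribosome biogenesis helicase gene. SDH7, an assembly factor of complex II, had a Reb1 site on chromosome IV (1469563 to 1469572) 450 bp upstream, inside SMT3, the SUMO gene, with score 11.9 at percentile 27.2. These 3 Reb1 sites thus covered the top and the lower part of the list.

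Abf1 sites were found at COX23 and COX16. COX23, a twin-cysteine protein of the intermembrane space, had the upstream site closest to a start codon of any member. It lay on chromosome VIII (341622 to 341637), 36 bp upstream, with score 13.8 at percentile 87.5. It was 270 bp from the divergent DMA1, a ubiquitin ligase gene, and the other COX23 site, 437 bp upstream with score 12.3, lay inside DMA1. The COX16 site on chromosome X (432306 to 432321) had score 11.8 at percentile 44.0 and was 331 bp from COX16 but 113 bp from the divergent SYS1. A further Abf1 site fell just outside the rule at ATP23, the protease that processes Atp6. Its centre was 1 bp inside the coding region (chromosome XIV, 668214 to 668229), with score 14.6 at percentile 96.3 and 5 rows. The other 14 assembly factor genes, ATP10, ATP11, ATP12, ATP22, ATP25, COX10, COX11, COX15, COX18, COX19, COX20, SDH5, SDH6 and SDH8, had no upstream site within 1000 bp.

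Abf1 sites also lay inside coding regions of the members, which the upstream counts leave out. ATP1 held a pair 910 and 912 bp after its start codon on opposite strands (chromosome II, 37956 to 37971 and 37958 to 37973), with scores 11.7 and 13.1. ATP5 held one 383 bp after its start codon (chromosome IV, 1058424 to 1058439) with score 11.5. With the ATP23 site at the start codon these were 4 Abf1 sites in 3 members (5.26%), against 8.68% of all genes, and Reb1 sites lay inside 0 members, against 3.60%. ATP1 and ATP5 had Reb1 upstream and Abf1 within the gene.

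**Figure D3:**
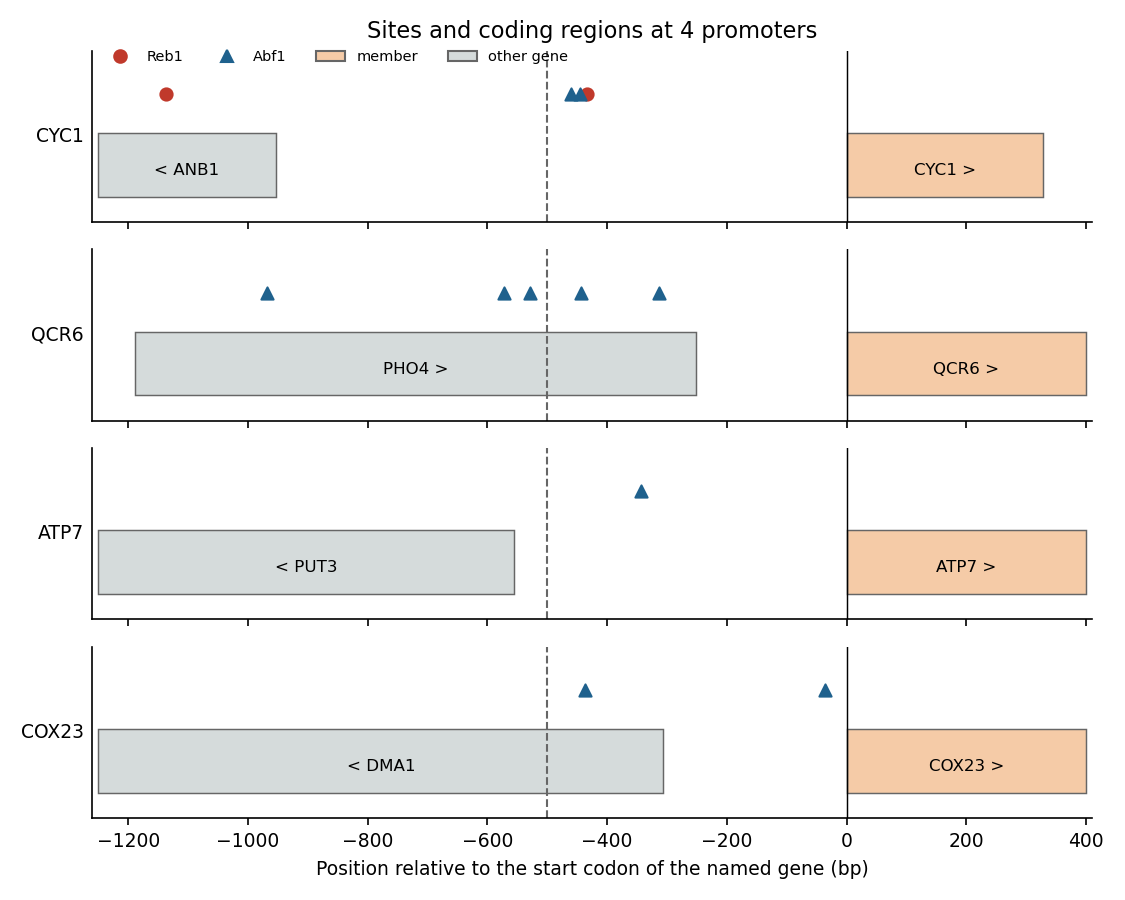
Coding regions (boxes, with arrows for direction) and sites (red circles Reb1, blue triangles Abf1) around the start codons of CYC1, QCR6, ATP7 and COX23, in bp from the start codon of each; the dashed line marks 500 bp upstream. The CYC1 sites lie in the middle of a divergent intergenic region, the QCR6 sites inside PHO4, and the ATP7 site nearer to PUT3.

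By their medians the sites at these genes lay farther from the start codon than upstream sites in general, which is a description of few sites without a test. The median distance was 244 bp for the 8 Reb1 sites (range 112 to 497), against 198 bp over all 813 pairs of a Reb1 site and a gene within 500 bp. For the 15 Abf1 sites it was 331 bp (36 to 462), against 212.5 bp over 926 pairs. With sites at or above the median score, the medians at members were 184.5 bp for Reb1 and 328.5 bp for Abf1. With sites outside all coding regions they were 230 bp and 269.5 bp. The medians over all pairs were not computed at these settings, so the direction is given for the main setting only. Beyond 300 bp lay 9 of 15 Abf1 sites (60%), against 32.1% of pairs, and 3 of 8 Reb1 sites (37.5%), against 27.2%. Inside the coding region of another gene lay 5 of 15 Abf1 sites and 1 of 8 Reb1 sites, against 11.2% and 4.92% of pairs. The 5 Abf1 sites were those of QCR6 and ATP2 and the farther site of COX23, and 4 of the 11 members with Abf1 had 2 sites each, so these sites are not independent of one another.

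Not every site belonged to the member more than to its neighbour. Start codons were counted here only where the site lay upstream, so DMA1, which holds the farther COX23 site, was left out there. At 16 of 23 sites no other protein-coding gene had the site within 500 bp upstream of its start codon. Another gene did at 1 of 8 Reb1 sites, against 26.4% of all upstream Reb1 sites. For Abf1 it was 6 of 15 sites, against 28.9% of all upstream Abf1 sites. These backgrounds count each site once, not each pair of a site and a gene. A shared site can enter the member counts through either gene, so the shares are not like for like. At 4 of the shared sites the start codon of the other gene was nearer, DRS1 at COX17, PUT3 at ATP7, SYS1 at COX16 and YHR050W-A at COX6. At the other 3 it was farther, DMA1 at COX23, YLR296W at ATP14 and ANB1 at CYC1. If each site is given only to the nearest gene that it lies upstream of, 7 members had Reb1 (12.3%, background 9.96%) and 8 had Abf1 (14.0%, background 10.6%). The upstream neighbour was divergent at 23 of 57 members (40.4%) and at 52.1% of all genes with one, a difference that was not tested. The gap to the upstream neighbour was similar, with a median of 438 bp (interquartile range 279 to 653) against 448 bp (280 to 731). Members with a site had a median gap of 433.5 bp and those without one 438 bp.

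The score has no stated definition, and no source used here says that a higher one means stronger binding. Scores at the members ran from 11.4 to 14.3 for Reb1, with a median of 12.8, against 12.6 for all 641 upstream Reb1 sites. For Abf1 they ran from 10.9 to 15.3, with a median of 12.4, against 12.5 for 716 upstream sites. At or above the median of the full list were 4 of 8 Reb1 sites, against 56.6% of upstream sites, and 10 of 15 Abf1 sites, against 63.5%. The number of identical rows per site, also undefined, ran from 1 to 5 for each factor. It reached 5 at the CYC1 Reb1 site and at both QCR6 Abf1 sites, while QCR9 with its high score had 2 rows and COX14 with the top score had 1.

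**Figure D4:**
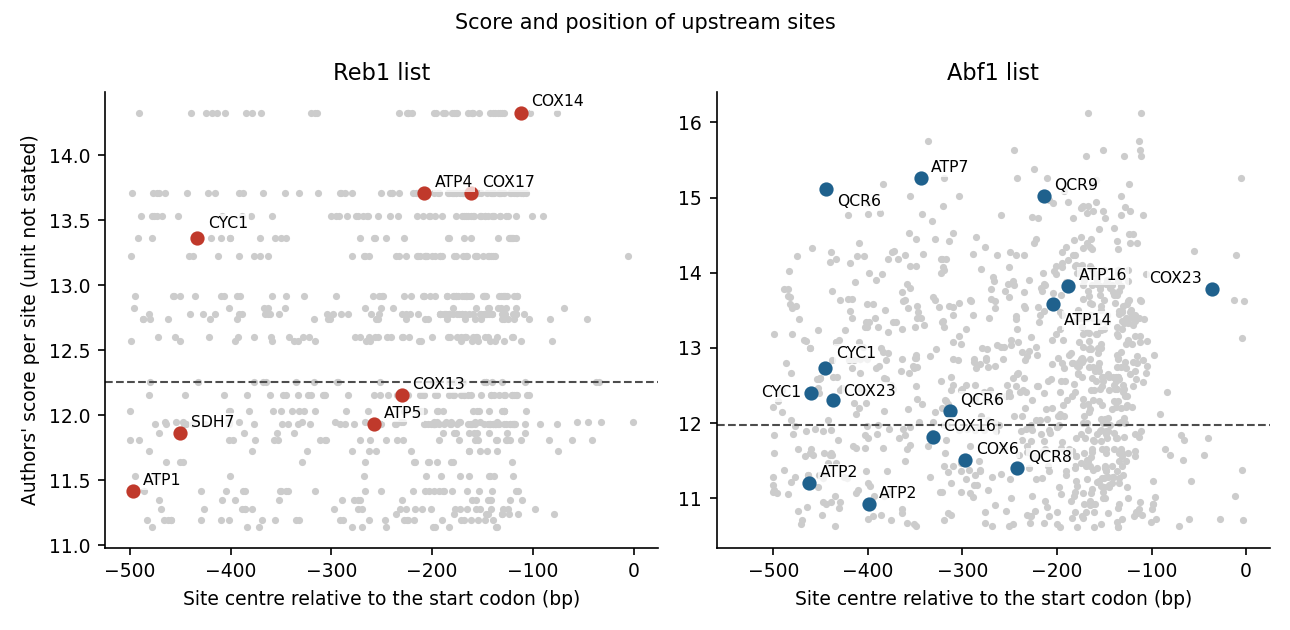
Authors' score of each site against its position relative to the start codon, in bp, for Reb1 (left) and Abf1 (right); grey points are all site and gene pairs within 500 bp, coloured points are members, and the dashed line is the list median. ATP7, QCR6 and QCR9 stand near the top of the Abf1 list, and both ATP2 sites near its bottom.

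Chromosomes V to IX, which the series text names as the reconstituted DNA, carry 11 of the members. COX13 alone of these had Reb1 (1 of 11, background there 13.3%), and QCR6, QCR9, COX6 and COX23 had Abf1 (4 of 11, 36.4%, interval 10.9 to 69.2, background 11.8%). All members of complexes II and V lie on other chromosomes, as do CYC1 and COX14. The labels speak only of a plasmid library and the lists cover all chromosomes, so whether DNA of these members was in the reactions is not settled by the sources used here.

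Another 58 genes of respiration that the symbols do not reach had sites at 11 genes (19.0%, 9.87 to 31.4). Reb1 and Abf1 were each upstream of 6 of 58 (10.3%, 3.89 to 21.2), and the shares of all genes (24.7% for either factor, 12.5% for Reb1 and 13.5% for Abf1) lay inside these intervals. NDI1, the internal NADH dehydrogenase that stands in for complex I in yeast, had both, a Reb1 site 196 bp upstream with the top score of 14.3 and 5 rows, and an Abf1 site 403 bp upstream with score 13.3. The other Reb1 sites were at CBP3 (137 bp) and PET111 (477 bp), which act in cytochrome b and Cox2 synthesis, CYT2 (212 bp), a heme lyase gene, NDE2 (377 bp), an external NADH dehydrogenase gene, and COR1 (398 bp), a core subunit of complex III. The other Abf1 sites were at PET54 (108 bp), COA3 (121 bp) and MSS51 (184 bp), which act in synthesis or assembly of oxidase subunits, PET9 (364 bp), the main ADP/ATP carrier gene, and HAP5 (334 bp). HAP1, HAP2, HAP3 and HAP4 had no site within 500 bp, so of the listed activators of respiration HAP5 alone had one.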

How the data were processed

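In vitro pulldowns of Strep-tagged Reb1 or Abf1 from reconstituted chromatin, crosslinked and digested with MNase, were analysed through the 2 deposited lists of motif sites. The score in these lists was deposited by the authors without a definition. Their processing notes name Bowtie, sacCer3 and R64 without roles. No source used here gives the motif scanner, peak caller, thresholds or pooling, nor the base at which starts are counted, so positions are uncertain by 1 bp.

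Identical rows (2808 for Reb1, 3699 for Abf1) were counted as 1 site with its number of rows. A site centre is the mean of start and end, rounded down. Distances run to the start codon of 6002 nuclear protein-coding genes of an R64 gene table, with strand read from the systematic name. All members with a site are named. The members and lists were chosen with earlier results of these data known. Planned motif searches were not run, because no genome sequence was used. Genes and sites are not replicates, so shares are given beside all genes and no p-value was computed.

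Alternatives were other windows, stricter score or row minimums, nearest gene only, intergenic sites only, chromosomes V to IX, merged sites, another start convention and other gene lists. The assignment was tested on simulated data: in 20 lists of 200 sites, 1973 of 1973 sites planted within 500 bp were found at their gene. Centres were planted from the same start codons and strands that the assignment uses, so only the distance arithmetic was checked. The gene table, the strand reading, the rounding of centres and the start convention were not. Versions were scipy 1.17.1, pandas 2.3.3, matplotlib 3.10.9 and numpy 2.4.6 under Python 3.11.15.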

Additional observations from a re-analysis of the deposited data

How the results depend on the processing

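No paired analysis was possible because the lists carry no samples. Across 12 alternatives, 63 of 84 recomputed counts stayed within 1.5 times of the reported ones. This tally is no measure of stability. Merging overlapping sites, counting starts from 0 and using half-position centres hardly move a site, and left each of these counts unchanged. On chromosomes V to IX, counts over 11 members were set against counts over 57. The Reb1 median distance rests on 8 sites, so its exact interval is their whole range, and it ran from 184.5 bp (sites at or above the median score) to 441.5 bp (1000 bp window), against 244 bp. With a 300 bp window, Reb1 was upstream of 5 members (background 9.31%), Abf1 of 6 (9.60%), either of 11 and both of 0. The Abf1 median distance was then 209 bp, 7 sites were at or above the median score and 2 had a nearer neighbour. With 1000 bp both factors were at 2 members (3.51%), CYC1 and ATP16, and 8 sites had a nearer neighbour. The share of all genes with either or both factors was computed only for the 500 bp limit with all sites. Those counts therefore stand without a background at the other settings. With sites at or above the median score, Reb1 was at 4 members (7.26%), Abf1 at 7 (9.30%) and either at 10, and 2 sites had a nearer neighbour. On chromosomes V to IX the counts were 1 for Reb1 (background 13.3%), 4 for Abf1 (11.8%), 5 for either and 0 for both. There, 5 sites were at or above the median score and 1 had a nearer neighbour. Without assembly factors and SDH9, 5 of 36 genes had Reb1 (13.9%, background 12.5%), a share close to that of all members. Abf1 was at 9 of the 36 (25%, interval 12.1 to 42.2, background 13.5%), and 2 sites had a nearer neighbour. With the nearest start codon alone 0 sites had one by construction. Adding COR1, RIP1 and TIM11, after seeing the data, gave 9 of 60 members with Reb1 (15%, background 12.5%) and 11 with Abf1 (18.3%, background 13.5%). Among members of one complex, 14 of 114 recomputed counts moved by more than 1.5 times, in groups of 4 to 20 genes. The planned motif search in promoter windows was not run, for want of sequence. The small number of genes limits every share given here.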
